A study of Mus musculus with 12 samples.

Results

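Described here are 9 secreted T cell cytokine genes, Il2, Il3, Il4, Il10, Il13, Il21, Lif, Csf1 and Csf2, out of 18193 mouse genes with a probe set of their own on the array. A probe set counted if the platform annotation gave it exactly 1 of these symbols, which left 14 of 45037 probe sets, and each gene was read at its probe set with the highest mean over the 12 arrays. The remaining 5 probe sets (3 for Csf1, 1 for Lif, 1 for Il21) served as a check. The probe sets read were 1449990_at for Il2, 1421207_at for Lif, 1427429_at for Csf2, 1450566_at for Il3, 1425154_a_at for Csf1, 1450330_at for Il10, 1420802_at for Il13, 1449864_at for Il4 and 1450334_at for Il21. A probe set annotated to both Ntan1 and Il2 was not used.

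The cells were lymph node suspensions from mice carrying the P14-TCR, a transgenic receptor by which CD8 T cells recognise a lymphocytic choriomeningitis virus peptide. The 4 groups, with 3 arrays each, were PKD2-null cells cultured for 4 h with that peptide (gp33-41, at 62.5 ng/ml), PKD2-null cells cultured for 4 h without it, and wild-type cells cultured in the same 2 ways. PKD2, the product of Prkd2, is a serine and threonine kinase of the protein kinase D family that is activated below the T cell antigen receptor. The 3 null and 3 wild-type mice each gave 1 stimulated and 1 unstimulated array. The suspensions are mixtures of cell types, so that in these bulk RNA samples fewer cells of a type and less RNA per cell cannot be told apart.

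T cells release cytokines within hours of meeting antigen, and most of these genes are silent until then. Calcium signals bring the NFAT factors into the nucleus, where they bind cytokine promoters together with AP-1 and NF-kB. IL-2, the first growth factor described for T cells, feeds back on the same cells and drives clonal expansion. IL-3 and GM-CSF (the product of Csf2) act on myeloid cells and their precursors, and M-CSF (Csf1) on macrophages. LIF signals through the gp130 receptor shared with the IL-6 family. IL-4 and IL-13 belong to the type 2 response, IL-21 is mainly a product of follicular helper cells, and IL-10 restrains inflammation.

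Several of these genes lie side by side. In the RefSeq gene order Il2 and Il21 are neighbours on chromosome 3, Csf2 and Il3 are neighbours on chromosome 11, and so are Il4 and Il13, with 0 protein-coding genes between the partners of each pair. Lif lies next to Osm, another cytokine of its family. The RefSeq promoter table held 8 of the 9 genes (not Il10). The 250 bases before the transcription start are shown for the 4 genes called higher after stimulation in at least 1 genotype with values above the floor of the scale, with the letters GGAAA (the core bound by NFAT factors) and their complement TTTCC in capitals. The coordinates are those of GRCm38.p6, chr3:37125955-37126204 on the minus strand for Il2, chr11:4257318-4257567 on the plus strand for Lif, chr11:54249900-54250149 on the minus strand for Csf2 and chr11:54267280-54267529 on the minus strand for Il3.
Il2 promoter: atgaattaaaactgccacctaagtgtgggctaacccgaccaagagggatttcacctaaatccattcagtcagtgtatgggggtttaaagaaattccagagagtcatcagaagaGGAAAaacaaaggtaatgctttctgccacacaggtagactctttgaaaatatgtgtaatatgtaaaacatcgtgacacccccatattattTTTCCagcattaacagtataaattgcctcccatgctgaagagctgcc
Lif promoter: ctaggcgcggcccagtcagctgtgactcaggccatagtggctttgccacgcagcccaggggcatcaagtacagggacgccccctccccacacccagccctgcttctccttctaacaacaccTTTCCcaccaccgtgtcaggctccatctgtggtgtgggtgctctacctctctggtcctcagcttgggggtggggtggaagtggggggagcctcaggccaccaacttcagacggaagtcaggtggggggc
Csf2 promoter: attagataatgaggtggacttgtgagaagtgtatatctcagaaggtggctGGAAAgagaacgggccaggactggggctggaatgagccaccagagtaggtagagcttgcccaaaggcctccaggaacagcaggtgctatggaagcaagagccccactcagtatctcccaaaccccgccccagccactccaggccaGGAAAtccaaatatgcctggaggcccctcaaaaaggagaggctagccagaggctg
Il3 promoter: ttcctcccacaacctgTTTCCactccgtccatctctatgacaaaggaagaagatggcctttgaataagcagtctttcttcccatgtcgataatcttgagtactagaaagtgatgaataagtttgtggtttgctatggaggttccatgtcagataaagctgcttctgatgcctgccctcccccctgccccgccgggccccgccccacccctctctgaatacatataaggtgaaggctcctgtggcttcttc

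The Il2 window held 2 NFAT core matches, the one nearer the start ending 43 bases before it, and a TATA box (TATAAA, read on the transcribed strand) that ended 26 bases before the start. The Csf2 window also held 2 core matches, and the Lif and Il3 windows 1 each. On either strand, 55.6% of 32851 promoters of the same length held at least 1 core match and 21.4% at least 2, so such matches are common. A TATAAA was present in 7.59% of them. The AP-1 letters TGANTCA, searched on both strands, were found in the Lif window (TGACTCA) and in 6.75% of all promoters; that match did not overlap the NFAT core. Among the genes not shown, Il13 held 4 core matches, Il21 and Csf1 3 each, and the 2 annotated starts of Il4 had 0 and 5.

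Values are log2 signals as deposited, so that a difference of 1 is a 2-fold change on this scale. The floor was set at 4.42, the 95th percentile of 44 probe sets for olfactory receptors, genes that lymph node cells are not known to use. A gene was at the floor in a group when all 3 arrays lay at or below that value, and 38.7% of all probe sets did so on all 12 arrays. A probe set was called where its two-sided adjusted p was below 0.05 (limma with Benjamini-Hochberg adjustment over all 45037 probe sets). Prkd2, the targeted gene, read 5.48 ± 0.12 in stimulated null cells, against 8.33 ± 0.178 in stimulated wild-type cells (SD, n = 3 each). Without peptide it read 6.0 ± 0.291 in null cells, against 10.17 ± 0.172 in wild-type cells (SD, n = 3 each).

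The levels of cell type markers were not even across the arrays, and they cannot tell cell numbers from RNA per cell. The CD8 T cell markers Cd8a and Cd8b1 averaged between 10.34 and 11.5 on every array, and 9 measured B cell markers averaged 8.65 to 9.36 in stimulated null cells against 8.03 to 8.21 in stimulated wild-type cells. Without peptide these B cell markers averaged 9.31 to 10.05 in null and 8.84 to 8.9 in wild-type cells. They thus stood higher in null cells already without antigen. Null mouse 2 stood apart on both of its arrays. Its B cell markers averaged 9.36 with peptide, against 8.7 and 8.65 in the other null mice, and its CD8 markers averaged 10.49, against 10.86 and 10.78. Its mast cell and basophil, natural killer and myeloid marker averages were also the highest of the null mice in both conditions. Of the 7 mast cell and basophil markers, Mcpt8, Fcer1a, Tpsb2 and Ms4a2 were at the floor on all 12 arrays and Cpa3, Mcpt4 and Kit were not. Cpa3 averaged 5.68 ± 0.867 in stimulated null and 5.04 ± 0.107 in stimulated wild-type cells, and Mcpt4 5.34 ± 0.818 in stimulated null and 5.09 ± 0.24 in stimulated wild-type cells (SD, n = 3 each). Calls of the 9 cytokine genes that change with this mouse are given with and without it.

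Of the 9 cytokine genes, Il4, Il13 and Il21 were at the floor in all 4 groups. Il3 was at the floor in every group except stimulated wild-type cells, and Il2 in both unstimulated groups. This made 4 genes at the floor in stimulated and 5 in unstimulated null cells, against 3 in stimulated and 5 in unstimulated wild-type cells. Lif, Csf2, Csf1 and Il10 were not at the floor in any group, although 2 of the 12 Il10 arrays lay below it.

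**Figure D1:**
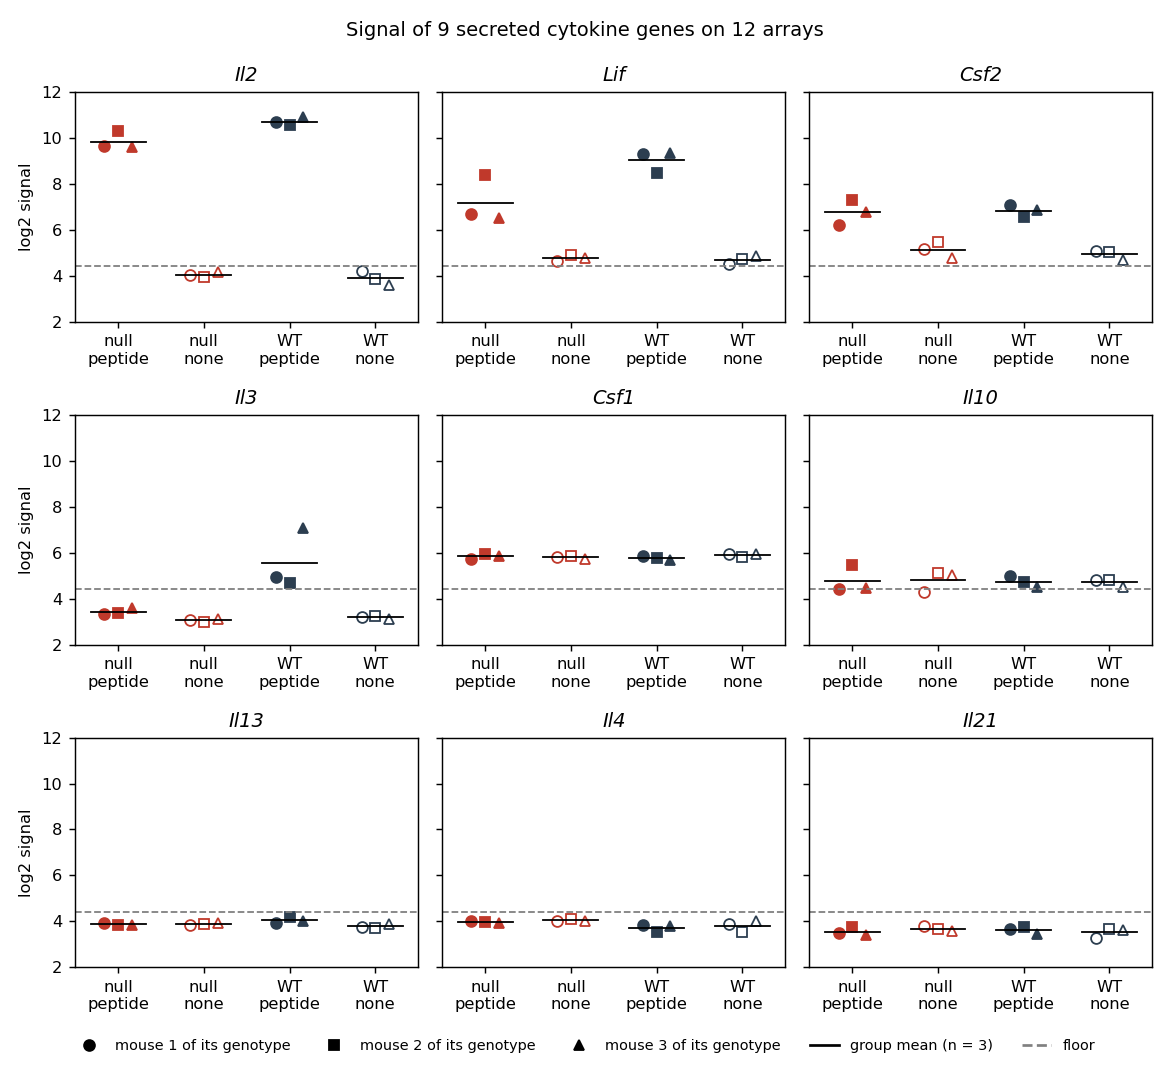
Log2 signal (vertical axis) of each of the 9 cytokine genes in the 4 groups (horizontal axis), filled symbols with peptide and open symbols without, red for PKD2-null and blue for wild type; the symbol shape gives the mouse, the short line the mean of 3 arrays and the dashed line the floor of 4.42. Il2, Lif and Csf2 stand higher with peptide in both genotypes, Il3 leaves the floor in stimulated wild-type cells only, and the other 5 genes hardly move.

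Antigen raised Il2, Lif and Csf2 in PKD2-null cells, and these 3 together with Il3 in wild-type cells. Il13 was also called in wild-type cells, but all of its values lay below the floor and the call was lost when any 1 mouse was left out. In null cells 3 of the 9 genes were called higher and 0 lower, where 11% of all probe sets were called higher and 13.8% lower (24.8% in either direction). In wild-type cells 5 of the 9 were called higher (4 above the floor, and Il13) and 0 lower, where 12.8% of all probe sets were called higher and 16.2% lower (29% in either direction). The median change over the 9 genes was 0.03 log2 in null cells and 0.26 in wild-type cells, beside -0.02 and 0.01 over all genes. That wild-type median is the change of Il13, a gene below the floor, so it shows no shift of the 9 genes as a set. All 3 stimulated arrays lay above all 3 unstimulated ones for 4 of the 9 genes in null cells (Il2, Il3, Lif and Csf2), where 16.3% of all probe sets did so. Il3 was at the floor in both of these null groups. In wild-type cells this held for 5 genes (the same 4 and Il13, the last below the floor), where 18.8% of all probe sets did so. Between the genotypes with peptide, 2 of the 9 genes were called lower in null cells (Lif and Il3) and 0 higher, where 0.38% of all probe sets were called lower and 0.799% higher (1.18% in either direction). In numbers these were 171 lower and 360 higher probe sets, and 199 lower and 262 higher after quantile normalization.

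Il2 moved most of the 9. In stimulated null cells it read 9.64, 10.27 and 9.59 in mice 1, 2 and 3, and in unstimulated null cells 4.03, 3.95 and 4.14. In stimulated wild-type cells it read 10.66, 10.53 and 10.91, and in unstimulated wild-type cells 4.2, 3.87 and 3.57. Every unstimulated array was thus at the floor, every stimulated array far above it, and the 3 stimulated null arrays all lay below the 3 stimulated wild-type arrays. In the order of the group means, stimulated wild-type cells came first and stimulated null cells next, and the 2 unstimulated groups, which overlapped, came last.

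Measured against the floor, stimulated Il2 was at least 42.5-fold higher than unstimulated Il2 in null cells (means 9.83 ± 0.376 and 4.04 ± 0.098, SD, n = 3 each, adjusted p = 3.94e-09). In wild-type cells it was at least 77.6-fold higher (10.7 ± 0.195 and 3.88 ± 0.316, SD, n = 3 each, adjusted p = 8.76e-10). The fitted changes were 5.79 log2 (SE 0.189) in null and 6.82 log2 (SE 0.189) in wild-type cells. Both calls held in every alternative tried, including the omission of any 1 mouse.

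With peptide, Il2 was lower in null than in wild-type cells by 1.83-fold (-0.87 log2, SE 0.189, 95% interval -1.28 to -0.46). Its adjusted p was 0.0502, so Il2 missed the threshold although the groups did not overlap. The side of the threshold turned on small choices. The adjusted p was 0.0457 when probe sets at the floor were left out, 0.0406 with 1 value per gene, 0.0415 with an intensity trend in the variance and 0.0109 without null mouse 2, where the difference was -1.09 log2. It was higher than 0.0502 in the other alternatives, with 0.272, without null mouse 1, as the highest. Without peptide the difference was 0.16 log2 (SE 0.189, adjusted p = 0.868), between values that all lay at the floor.

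The response of Il2 within each mouse was 5.61, 6.31 and 5.45 log2 in null mice 1, 2 and 3, and 6.46, 6.66 and 7.34 log2 in wild-type mice 1, 2 and 3. The largest null response, that of mouse 2, lay just under the smallest wild-type response. The difference between the 2 mean responses was -1.03 log2 (SE 0.268, 95% interval -1.61 to -0.45). It did not pass the test over all probe sets (unadjusted p = 0.00227, adjusted p = 0.458), and the unstimulated values at the floor bear on it as well.

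Lif rose in both genotypes and was lower in null cells. In stimulated null cells it read 6.66, 8.36 and 6.52 in mice 1, 2 and 3, and in unstimulated null cells 4.62, 4.91 and 4.77. In stimulated wild-type cells it read 9.29, 8.45 and 9.32, and in unstimulated wild-type cells 4.49, 4.72 and 4.85. Null mouse 2 came just under the lowest stimulated wild-type array, whereas null mice 1 and 3 were far below all 3.

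Stimulated over unstimulated Lif was 5.33-fold in null cells (7.18 ± 1.022 and 4.77 ± 0.144, SD, n = 3 each, 2.41 log2, SE 0.389, adjusted p = 0.000431). In wild-type cells it was 20.1-fold (9.02 ± 0.495 and 4.68 ± 0.179, SD, n = 3 each, 4.33 log2, SE 0.389, adjusted p = 2.36e-06). The unstimulated values, 4.62 to 4.91 in null and 4.49 to 4.85 in wild-type cells, all lay below the highest olfactory receptor value of 4.945. Both folds are thus measured down to values near the floor. With peptide, Lif was 3.57-fold lower in null than in wild-type cells (-1.84 log2, SE 0.389, adjusted p = 0.0458). Without null mouse 2 that difference was -2.42 log2 (adjusted p = 0.00143). The call was lost when any 1 of the other 5 mice was left out (adjusted p 0.0949 to 0.256), when only the stimulated arrays were fitted (0.173) and with the mean of both Lif probe sets (-1.25 log2, adjusted p = 0.0543).

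The second Lif probe set was dimmer and gave smaller changes in the same directions. It rose by 0.86 log2 in null cells (adjusted p = 0.0175) and by 1.36 log2 in wild-type cells (adjusted p = 0.00066). Its difference between the genotypes with peptide, -0.67 log2, was not called (adjusted p = 0.208), and null mouse 2, at 5.63, lay inside the wild-type range of 5.46 to 6.17. On the main probe set the responses per mouse were 2.04, 3.45 and 1.76 log2 in the null mice and 4.79, 3.73 and 4.47 log2 in the wild-type mice. They did not overlap, and their difference of -1.92 log2 (SE 0.55) had an unadjusted p of 0.00436 and an adjusted p of 0.502.

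Csf2 rose in both genotypes. In stimulated null cells it read 6.22, 7.28 and 6.75 in mice 1, 2 and 3, and in unstimulated null cells 5.16, 5.48 and 4.76. In stimulated wild-type cells it read 7.09, 6.54 and 6.86, and in unstimulated wild-type cells 5.08, 5.03 and 4.68. The stimulated null arrays spanned the wild-type ones, with null mouse 2 the highest and null mouse 1 the lowest of the 6.

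Stimulated over unstimulated Csf2 was 3.07-fold in null cells (6.75 ± 0.533 and 5.13 ± 0.36, SD, n = 3 each, 1.62 log2, SE 0.251, adjusted p = 0.000323). In wild-type cells it was 3.74-fold (6.83 ± 0.276 and 4.93 ± 0.218, SD, n = 3 each, 1.9 log2, SE 0.251, adjusted p = 6.3e-05). With peptide the genotypes differed by -0.08 log2 (95% interval -0.63 to 0.47, adjusted p = 0.915). The interval leaves room for a difference in either direction, so the test does not show equal levels. Per mouse the responses were 1.06, 1.81 and 1.99 log2 in the null mice and 2.01, 1.51 and 2.18 log2 in the wild-type mice, which overlap.

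Il3, the neighbour of Csf2, behaved otherwise. In stimulated null cells it read 3.31, 3.39 and 3.57 in mice 1, 2 and 3, and in unstimulated null cells 3.06, 3.0 and 3.1. In stimulated wild-type cells it read 4.93, 4.69 and 7.08, and in unstimulated wild-type cells 3.21, 3.26 and 3.11. Only the 3 stimulated wild-type arrays rose above the floor, and wild-type mouse 3 stood far above the other mice of its group.

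Stimulated Il3 was at least 2.2-fold higher than unstimulated Il3 in wild-type cells (5.56 ± 1.317 and 3.19 ± 0.078, SD, n = 3 each, 2.37 log2, SE 0.444, adjusted p = 0.00106). Without wild-type mouse 3 the change was 1.57 log2 and still called, although it is measured down to unstimulated values below the floor. In null cells the stimulated arrays lay above the unstimulated ones (3.42 ± 0.131 and 3.05 ± 0.05, SD, n = 3 each), all of them at the floor, and the change of 0.37 log2 was not called (SE 0.444, adjusted p = 0.656). It was called in 2 alternatives, with only the null arrays fitted (adjusted p = 0.0259) and without wild-type mouse 3 (0.0177).

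With peptide, Il3 was at least 2.2-fold lower in null than in wild-type cells (-2.14 log2, SE 0.444, adjusted p = 0.0425). This bound leans on wild-type mouse 3. Wild-type mice 1 and 2, at 4.93 and 4.69, lay below the highest olfactory receptor value of 4.945. Without wild-type mouse 3 the difference was -1.38 log2 (adjusted p = 0.00154), measured down to null values below the floor. The call was lost without null mouse 1, 2 or 3 or wild-type mouse 1 (adjusted p 0.0512 to 0.216, 0.0667 without null mouse 2), and with only the stimulated arrays fitted (0.172). Per mouse the responses were 0.25, 0.39 and 0.47 log2 in the null mice and 1.71, 1.42 and 3.97 log2 in the wild-type mice. Their difference of -2.0 log2 (SE 0.628) had an unadjusted p of 0.00773 and an adjusted p of 0.55.

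**Figure D2:**
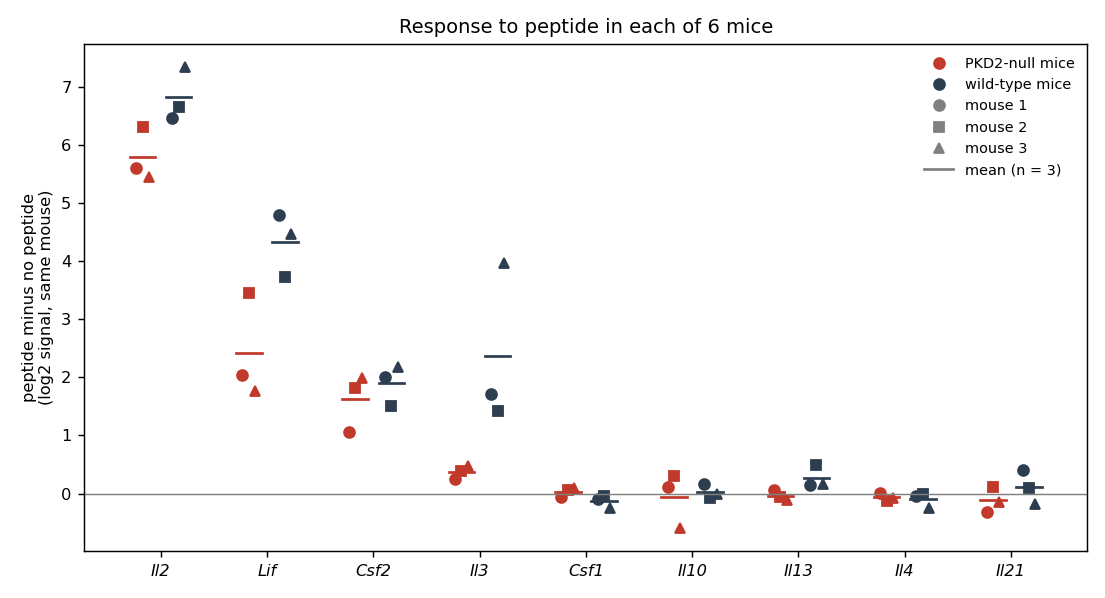
Response to peptide (stimulated minus unstimulated log2 signal of the same mouse, vertical axis) for the 9 cytokine genes (horizontal axis), red for the 3 PKD2-null and blue for the 3 wild-type mice, with the symbol shape for the mouse and a line at each mean. For Il2, Lif and Il3 every null mouse lies below every wild-type mouse, null mouse 2 is the highest null response of Il2 (6.31) and Lif (3.45), and wild-type mouse 3 stands alone for Il3 (3.97).

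Csf1 did not move with peptide on its main probe set. That probe set read 5.74 to 5.93 in stimulated and 5.73 to 5.86 in unstimulated null cells, and 5.69 to 5.83 in stimulated and 5.82 to 5.93 in unstimulated wild-type cells. Its changes with peptide were 0.03 log2 in null cells (adjusted p = 0.851) and -0.13 log2 in wild-type cells (adjusted p = 0.293). Other Csf1 probe sets gave other values. Probe set 1460220_a_at stood higher with peptide by 0.56 log2 in null cells (adjusted p = 0.145) and by 0.59 log2 in wild-type cells (adjusted p = 0.106), and probe set 1448914_a_at by 0.24 log2 in null cells (adjusted p = 0.43) and 0.44 log2 in wild-type cells (adjusted p = 0.0987). The fourth, 1425155_x_at, was at the floor on all 12 arrays.

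Il10 stayed near the floor. It read 4.41 to 5.44 in stimulated and 4.28 to 5.13 in unstimulated null cells, and 4.51 to 4.97 in stimulated and 4.51 to 4.81 in unstimulated wild-type cells. The groups overlapped in all comparisons, and the 5 log2 differences lay between -0.08 and 0.11, with 0 called by limma and 0 at an unadjusted p under 0.05. The highest value, 5.44, was that of null mouse 2.

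The type 2 cytokines and Il21 gave no signal above the floor. Il13 read 3.83 to 3.93 in stimulated null cells against 3.93 to 4.19 in stimulated wild-type cells, and it was called in wild-type stimulation (0.26 log2, SE 0.086, adjusted p = 0.0355), although all of its 12 values lay below the floor. That call was lost with the mouse as a block (adjusted p = 0.063), with only the wild-type arrays fitted (0.0913) and when any 1 of the 6 mice was left out (0.0528 to 0.345). Il4 read 3.95 to 4.02 in stimulated null cells against 3.55 to 3.83 in stimulated wild-type cells, without overlap, and the difference of 0.26 log2 was not called (adjusted p = 0.308). Il21 stayed between 3.27 and 3.81, and its second probe set was at the floor on all arrays too.

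With peptide, all 3 null arrays lay below all 3 wild-type arrays for 4 of the 9 genes, Il2, Lif, Il3 and Il13, as for 11% of all probe sets. Il13 was at the floor in both groups, so its order there is no difference in measured expression. Il4, also at the floor, lay the other way, as did 9.42% of all probe sets. The median over the 9 genes was -0.08 log2, beside -0.03 over all genes. For the responses per mouse, the same 4 genes had all null mice below all wild-type mice, where 9% of all probe sets did, and 0 genes had them above, where 7.56% did.

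Without peptide limma called 0 of the 9 genes between the genotypes, where 0.0377% of all probe sets were called (0.0155% higher and 0.0222% lower), and 0 of them had an unadjusted p under 0.05. Only Il3 had all 3 null arrays below all 3 wild-type arrays there (-0.14 log2, at the floor), as had 6.41% of all probe sets, and 0 of the 9 lay the other way, as did 7.39%. For the difference of the peptide effects limma also called 0 of the 9, where 0.00222% of all probe sets were called. The unadjusted p for that difference was under 0.05 for 4 of the 9 genes, Il2, Lif, Il3 and Il13. Of all 45037 probe sets, 3209 had such a p, and Il13 was at the floor on all 12 arrays. With the mouse as a block, the calls over all probe sets became 9 higher and 34 lower for the difference of the effects, against 0 and 1. Without peptide they became 19 and 25, against 7 and 10. None of the 9 genes was among them.

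**Figure D3:**
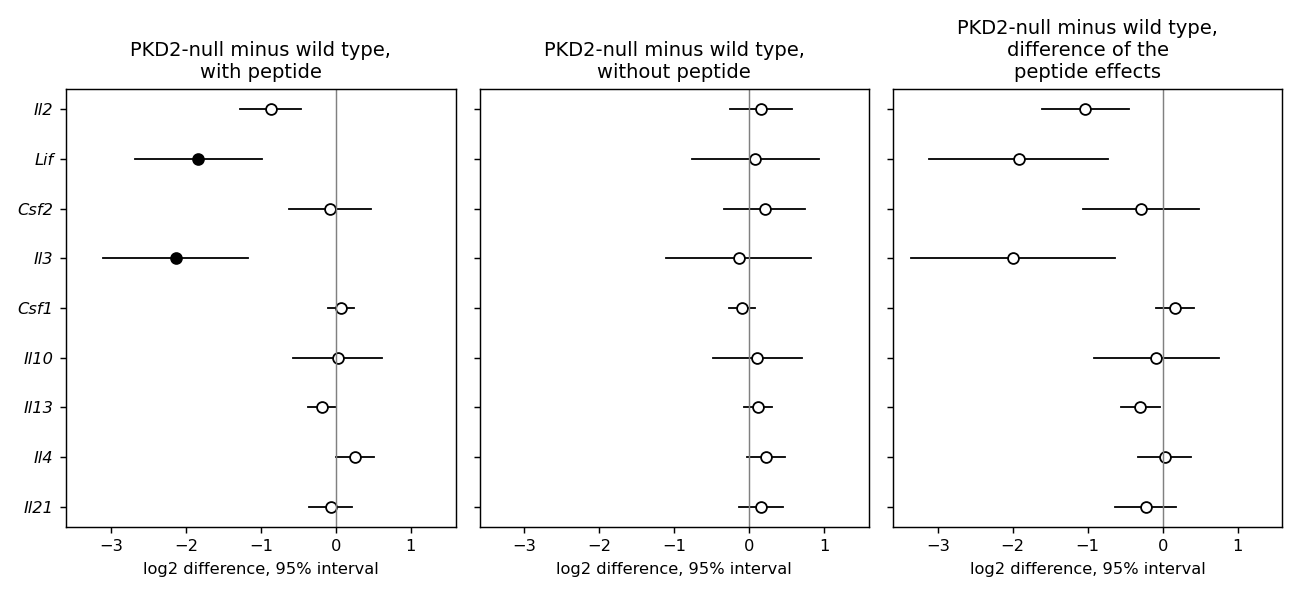
PKD2-null minus wild-type log2 difference (horizontal axis, with 95% intervals) for the 9 cytokine genes, with peptide, without peptide, and as the difference of the peptide effects; filled circles had an adjusted p under 0.05. With peptide Lif (-1.84) and Il3 (-2.14) are filled and Il2 (-0.87) is open with an interval clear of 0, and without peptide all intervals cross 0.

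Null mouse 2 bears on several of these results. With peptide it was the highest null array for 6 of the 9 genes. These included Il21, at the floor on all 12 arrays, and Csf1, at 5.93 against 5.83 in the next null array. Among all probe sets null mouse 2 was the highest for 33.6%. Its overall response was nonetheless the smallest, with a slope of 0.828 on the mean response over 3368 probe sets that moved by at least 1 log2 on average, against 0.942 and 0.99 in the other null mice and 1.031 to 1.125 in the wild-type mice. What part its marker levels have in its cytokine values was not tested.

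The genes whose signal followed Il2 most closely over the 12 arrays were Naf1 (Pearson r = 0.9966), Il2ra (0.9963), Eif2s2 (0.996), Spry1 (0.9954) and Ran (0.9953). Il2ra encodes the alpha chain of the IL-2 receptor, Spry1 an inhibitor of receptor tyrosine kinase signalling, Eif2s2 a subunit of a translation initiation factor and Ran a GTPase of nuclear transport. The arrays fall into 2 clusters, with and without peptide, and these correlations span both. By Spearman's rho, 0 of the 5 remained among the 5 closest. Among the cytokine genes, r with Il2 was 0.953 for Csf2, 0.941 for Lif and 0.662 for Il3, which placed them only at ranks 1068, 1242 and 3027 among all genes.

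The receptors of these cytokines were called in both directions, in null cells at shares near those of all probe sets. Of 15 measured receptor genes, limma called 2 higher and 2 lower with peptide in null cells, against 3 higher and 3 lower in wild-type cells. The 3 higher in wild-type cells included Il13ra2, which was at the floor on all 12 arrays. With probe sets at the floor left out, 12 receptor genes remained, with 3 higher and 2 lower in null cells and 2 higher and 3 lower in wild-type cells. With the mouse as a block the counts were 3 higher and 6 lower in null cells and 3 higher and 5 lower in wild-type cells. Of all 45037 probe sets, the block gave 5595 higher and 7290 lower in null cells, and 6331 and 8262 in wild-type cells. Without null mouse 2 the receptor counts of null cells were 3 and 4, where 4570 and 5675 of all probe sets were called. Without the block, 11% of all probe sets were called higher and 13.8% lower in null cells. In wild-type cells these shares were 12.8% and 16.2%, and the same shares apply to the lists below. Il2ra rose by 3.99 log2 in null cells and by 4.51 log2 in wild-type cells, and Il21r, the IL-21 receptor, by 1.25 log2 in null and 1.0 log2 in wild-type cells. Csf2rb, the beta chain shared by the IL-3 and GM-CSF receptors, fell by 1.06 log2 in null cells and fell by 1.3 log2 in wild-type cells. Il10rb, a chain of the IL-10 receptor, fell by 0.89 log2 in null and fell by 1.14 log2 in wild-type cells.

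Between the genotypes with peptide, where 1.18% of all probe sets were called, Il2ra was the 1 receptor gene called. It averaged 9.57 ± 0.149 in stimulated null cells and 10.2 ± 0.107 in stimulated wild-type cells (SD, n = 3 each), a difference of -0.63 log2 (SE 0.126, adjusted p = 0.0379). No receptor gene was called in that comparison when any 1 mouse other than null mouse 2 was left out. Lifr, the LIF receptor, was at the floor on all 12 arrays.

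Of 10 measured JAK and STAT genes, which carry the signals of these receptors, limma called 1 higher and 4 lower with peptide in null cells, and 3 higher and 4 lower in wild-type cells. Stat5b, a transducer of IL-2 signals, fell by 1.19 log2 in null and fell by 1.44 log2 in wild-type cells. Stat4, a transducer of IL-12 signals, fell by 1.0 log2 in null cells. It was also called lower in wild-type cells, with means of 10.26 with peptide and 11.19 without. Jak1, which works with most of these receptors, fell by 0.99 log2 in null and by 1.26 log2 in wild-type cells. Jak2, which works with the IL-3 and GM-CSF receptors, rose by 0.92 log2 in null and by 0.66 log2 in wild-type cells, and Stat3, a transducer of LIF, IL-10 and IL-21 signals, by 0.68 log2 in wild-type cells. Limma called 0 of the 10 between the genotypes with peptide, and 1 without null mouse 2. With all mice, 2 of the 10 had an unadjusted p under 0.05, as had 7034 of 45037 probe sets.

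Among 30 measured regulators of cytokine genes, 15 were called higher and 4 lower with peptide in null cells, and 17 higher and 4 lower in wild-type cells. Tbx21, which encodes T-bet, rose by 5.23 log2 in null and 5.67 log2 in wild-type cells, and Irf4 by 3.15 log2 in null and 3.87 log2 in wild-type cells. Nfatc3, an NFAT factor, fell by 1.28 log2 in null and fell by 1.79 log2 in wild-type cells. Zeb1, a repressor of Il2 transcription, fell by 1.05 log2 in null and fell by 0.96 log2 in wild-type cells.

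With peptide, 3 of these regulators were called higher and 1 lower in null than in wild-type cells. Of all probe sets, 0.799% were called higher and 0.38% lower. Bcl6, a repressor, was higher by 0.95 log2 (9.48 ± 0.181 in null and 8.53 ± 0.159 in wild-type cells, SD, n = 3 each, adjusted p = 0.00984). Nfatc3 was higher by 0.62 log2 (adjusted p = 0.011) and Nfatc2 by 0.57 log2 (adjusted p = 0.0297). Both had fallen with peptide in each genotype, and their null values lay nearer to the unstimulated level. Fosl1, a partner in AP-1, was lower (7.52 ± 0.417 in null and 8.37 ± 0.196 in wild-type cells, SD, n = 3 each, -0.85 log2, adjusted p = 0.0464). Without null mouse 2 the counts were 7 higher and 5 lower, and without null mouse 1 they were 0 and 0.

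Of 28 other cytokine genes measured, 9 of which were at the floor throughout, 7 were called higher and 1 lower with peptide in null cells, and 12 higher and 2 lower in wild-type cells. The genes higher in wild-type cells included Il23a, at the floor throughout. With probe sets at the floor left out, the counts were 7 and 1 of 19 in null cells, and 11 and 2 in wild-type cells. Tnf rose by 4.45 log2 in null and 4.4 log2 in wild-type cells, and Lta, its neighbour in the same family, by 3.85 log2 in null and 3.56 log2 in wild-type cells. Ifng, the gene of interferon gamma, rose by 3.31 log2 in null and 5.45 log2 in wild-type cells, and its difference between the genotypes with peptide was -1.81 log2 (adjusted p = 0.104). Il16 fell by 1.58 log2 in null and fell by 2.06 log2 in wild-type cells, and Osm, the neighbour of Lif, fell by 0.38 log2 in wild-type cells.

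Between the genotypes with peptide, where 1.18% of all probe sets were called, 1 of the 28 was called. It was Il23a at -0.48 log2 (adjusted p = 0.0366), whose values were at the floor on all 12 arrays. The count was 0 without null mouse 1 or 3, without wild-type mouse 2 or 3 and with only the stimulated arrays fitted, and 2 without null mouse 2. Tnf differed by 0.18 log2 there (adjusted p = 0.711) and Lta by 0.11 log2 (adjusted p = 0.773), like Csf2 without a call. In all 4 lists limma called 0 genes between the genotypes without peptide and 0 for the difference of the effects. At an unadjusted p under 0.05 there were 3 other cytokines, 3 receptors, 1 JAK or STAT gene and 10 regulators without peptide. For the difference these counts were 7, 2, 1 and 7. Of all 45037 probe sets, 4014 had such a p without peptide and 3209 for the difference. Without null mouse 2, 1 regulator was called higher in null cells without peptide.

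**Figure D4:**
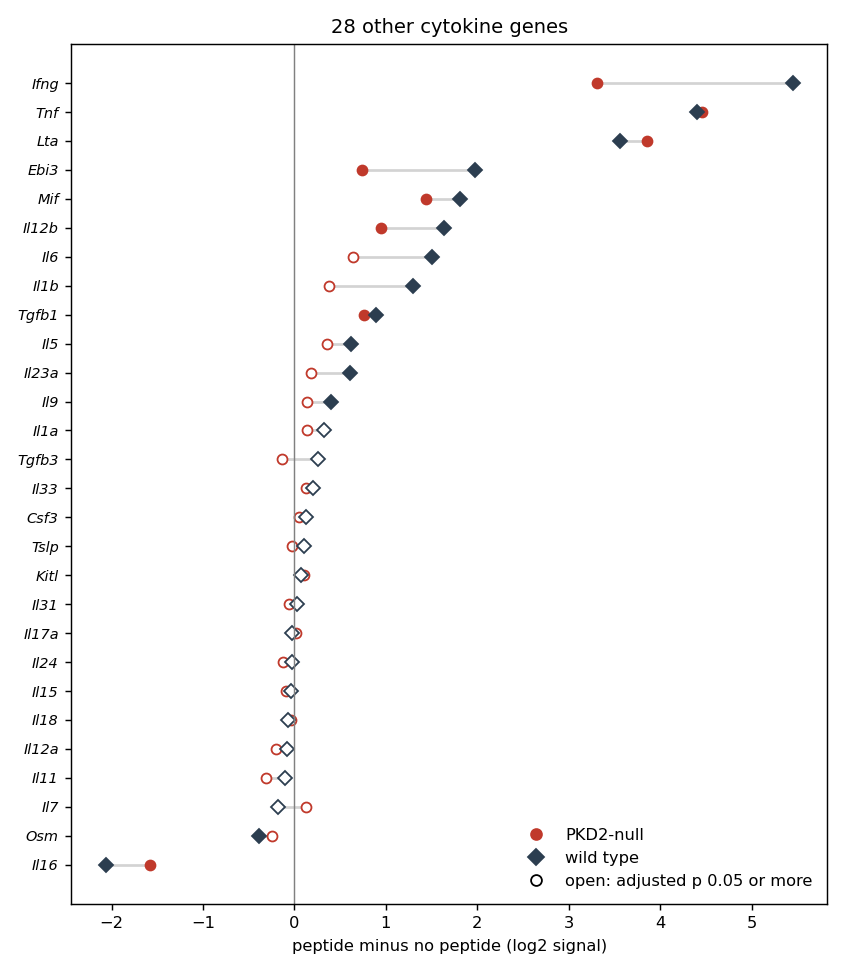
Change with peptide (stimulated minus unstimulated log2 signal, horizontal axis) of 28 other cytokine genes (vertical axis), red circles for PKD2-null and blue diamonds for wild-type cells, filled where the adjusted p was under 0.05. Tnf and Lta rise by close to the same amount in both genotypes, Ifng by 3.31 in null and 5.45 in wild-type cells, and Il16 falls in both.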

How the data were processed

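RNA of 12 lymph node cell samples was measured on Affymetrix mouse arrays. The deposited table holds log2 values, which the authors made with Affymetrix Expression Console 1.1, per the submitters' processing notes. How they were normalized is not stated in those notes. Array medians were 4.67 to 4.72, so no further scaling was applied. The number of arrays limits the precision.

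Of 45101 probe sets, 64 controls were left out. The platform annotation gave 34945 of the other 45037 a single symbol and 932 several, which were not used as genes. The 9 genes and the lists were chosen with earlier results of these data known, so nothing here is independent support for them.

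Group means were fitted with limma 3.58.1 (R 4.3.3, 8 residual and 4.18 prior degrees of freedom) in 5 comparisons: peptide against none in each genotype, null against wild type with and without peptide, and the difference of the peptide effects. The comparisons share arrays. The fit was tested on simulated data. Figures and counts used Python 3.11.15. All 9 genes are named in each comparison. Of each list, the 2 largest called rises and falls with peptide are named, and up to 4 genes called between genotypes. Lifr, and the genotype differences of Ifng, Tnf and Lta, were picked out after their values were seen.

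Both arrays of a mouse carry its number in the labels. Their deviations from the group means correlated at 0.116 to 0.577, against at most 0.129 with another mouse, so the mouse as a block was an alternative. The block was fixed for the peptide effects and their difference. For the comparisons between genotypes it was random, with a correlation of 0.202 between both arrays of a mouse. Other alternatives were a filter at the floor, the mean of a gene's probe sets, quantile normalization, centring, an intensity trend, only the groups compared, and each mouse left out. Promoter letters came from RefSeq (GRCm38.p6), and RefSeq gene order was used for neighbours.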

Additional observations from a re-analysis of the deposited data

How the results depend on the processing

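Over all alternatives, 561 changes of single cytokine genes were recomputed: 535 stayed on the same side of the threshold, 20 lost and 6 gained a call, and none that was called changed sign; 19 uncalled ones did. The calls of Il2, Lif and Csf2 in both stimulations, and of Il3 in wild-type stimulation, held throughout. The comparison of null and wild-type cells with peptide was the least stable. Its count of 2 called genes became 3, with Il2 added, when probe sets at the floor were left out or with the intensity trend, stayed at 2 but with Il2 in place of Lif with 1 value per gene, became 0 with only the stimulated arrays fitted, and was 0 to 2 when 1 mouse was left out (1 without wild-type mouse 2 or 3, 2 without null mouse 2, which were Il2 and Lif, otherwise 0). With the replicate block that count stayed at 2, and Il2 there had an adjusted p of 0.0591. The block ended the call of Il13 and changed no other call of the 9 genes. Over all probe sets, that comparison gave 360 higher and 171 lower calls, against 63 and 28 with only the stimulated arrays, 262 and 199 after quantile normalization, 787 and 363 without null mouse 2, 46 and 23 without null mouse 1, 107 and 29 without null mouse 3, 106 and 68 without wild-type mouse 2, and 94 and 28 without wild-type mouse 3. Without peptide, the 7 higher and 10 lower calls became 34 and 30 without null mouse 2, 23 and 29 with the intensity trend, 21 and 11 with 1 value per gene, 11 and 21 after quantile normalization, and 0 and 3 with only the unstimulated arrays or without wild-type mouse 3. The single call for the difference of the effects became 6 higher and 5 lower without null mouse 2. With the 75th percentile of the olfactory receptor values as the floor (3.86), 2 genes were at the floor in each group; with each array's median the counts were as reported. Groups of 3 arrays and a floor over which 3 of the 9 genes never rose limit what can be seen, and a low level in few cells was not detectable on this scale.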
